A study of Homo sapiens and Mus musculus with 18 samples.

Results

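The libraries described here are those of Met5a cells given a form of AMHR2, divided by how much AMHR2 RNA they held. The classes were chosen by the measured AMHR2 count over the library total: above 1000 CPM (counts scaled to the library total) a library was called AMHR2-high, and below it AMHR2-low. The AMHR2 level itself is therefore a description and was not tested. The rule covers 7 of the 18 samples of the series, with 2 high libraries, V1 4 and V3 1, and 5 low ones, V1 1, V1 2, V1 3, V3 2 and V3 3. Just inside the line stood V1 4 at 4943 CPM of the total, and just outside it V1 1 at 75.9.

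Met5a is an immortalised human mesothelial line of pleural origin. Bulk RNA was sequenced from 10 Met5a libraries and from 8 mouse tumours, which are not used here. CTR cells (3 libraries) carry the genotype label WT. V1 cells (4 libraries) and V3 cells (3 libraries) carry the genotype label Amhr2+ and overexpress, respectively, a receptor form that the series calls active and one that it calls inactive. All 10 were grown in DMEM with 10% serum, and the labels name no added ligand. The promoter of the construct, its delivery, and whether the cells were pools or single clones are not given in the sources. Whether replicate libraries were grown as separate cultures is not stated in the labels, so the p-values reflect the spread among these libraries alone, which may be technical. High and low are not groups of the study, each form gave 1 high library, and the AMHR2 level cannot be told apart from any other difference between these cultures.

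AMHR2 is the receptor that binds anti-Müllerian hormone (AMH), the ligand that makes the Müllerian duct regress in the male embryo. It is a type II receptor, and on binding AMH it pairs with a type I receptor of the BMP class, such as ACVR1, BMPR1A or BMPR1B, which phosphorylates SMAD1, SMAD5 and SMAD9 and through them turns on BMP target genes such as the ID genes. The coelomic mesothelium around the Müllerian duct is one of the tissues in which the receptor acts.

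Library totals ran from 15489888 to 21642906 counts. Mitochondrial transcripts took 4.93% of the counts in V1 1 and 5.09% in CTR 3, against 3.22 to 4.17% in the other 8 libraries and 3.57 and 3.49% in the high libraries. From here on CPM refers to totals scaled by TMM factors. Most mesothelial markers were detected: KRT8, KRT18 and the rest of the list summed to 5620 to 5750 CPM in the high libraries, 1830 to 5250 in the low ones and 2670 to 6300 in CTR, with 12 of 14 above 1 CPM in some library. KRT19 and ITLN1 were the exceptions. WT1 stood above 1 CPM in CTR 1 alone, at 3.88, and under it in all 7 libraries with a construct. Fibroblast markers summed to 518 to 546, 96 to 853 and 448 to 1420 CPM in the same order, and the 6 lymphocyte markers to at most 0.859 CPM in any library, with CD2 and MS4A1 at 0 in all 10.

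The introduced receptor was among the most abundant transcripts of the high libraries. AMHR2 (ENSG00000135409; chromosome 12 of GRCh38, 53423855 to 53431534) took 90729 counts in V1 4 and 121681 in V3 1, which made it the 6th and the 5th most counted gene of those libraries. In CPM it stood at 5250 and 6090 in the high libraries, and at 67.4, 20.6, 2.00, 62.5 and 2.72 in V1 1, V1 2, V1 3, V3 2 and V3 3, the order used for low libraries throughout. The lowest high library was 78-fold above the highest low one, and among the low libraries themselves the level spanned 33.7-fold. CTR libraries held 0 counts, which allows up to 0.14, 0.168 and 0.174 CPM in CTR 1 to 3 at a limit of 3 counts (counting error only).

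ACVR1 (ENSG00000115170, chromosome 2, 157736444 to 157875862), the type I receptor that AMHR2 can partner, followed the same order as AMHR2 over all 7 libraries. It stood at 5670 and 7230 CPM in the high libraries, at 569.2, 84.1, 49.6, 331 and 79.9 in the low ones, and at 26.6, 26.5 and 26.7 in CTR 1 to 3. The high libraries lay at least 9.95-fold above every low library, and the lowest low library 1.86-fold above the highest CTR library. The edgeR quasi-likelihood log2 fold change, high against low, was 4.86 (SE 0.88), with a Benjamini-Hochberg adjusted p of 0.307, and 5.81 with an edgeR adjusted p of 0.024 when V1 1 was left out. With log2 AMHR2 as a continuous term in place of the 2 classes, ACVR1 changed by 0.61 log2 units per doubling of AMHR2 (edgeR adjusted p = 0.0106).

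Per unit of gene length the pair stood level in the high libraries and apart in the low ones. On the FPKM scale AMHR2 was at 1470 and 1690 and ACVR1 at 1390 and 1770 in V1 4 and V3 1, a ratio of 1.05 and 0.955. In the low libraries the FPKM ratio of AMHR2 to ACVR1 was 0.134, 0.277, 0.0458, 0.214 and 0.0386. Together they took 1.03% and 1.25% of all counts in the high libraries and 0.0718% or less in the low ones. Whether ACVR1 reads came from the endogenous gene or from an introduced copy was not tested.

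**Figure D1:**
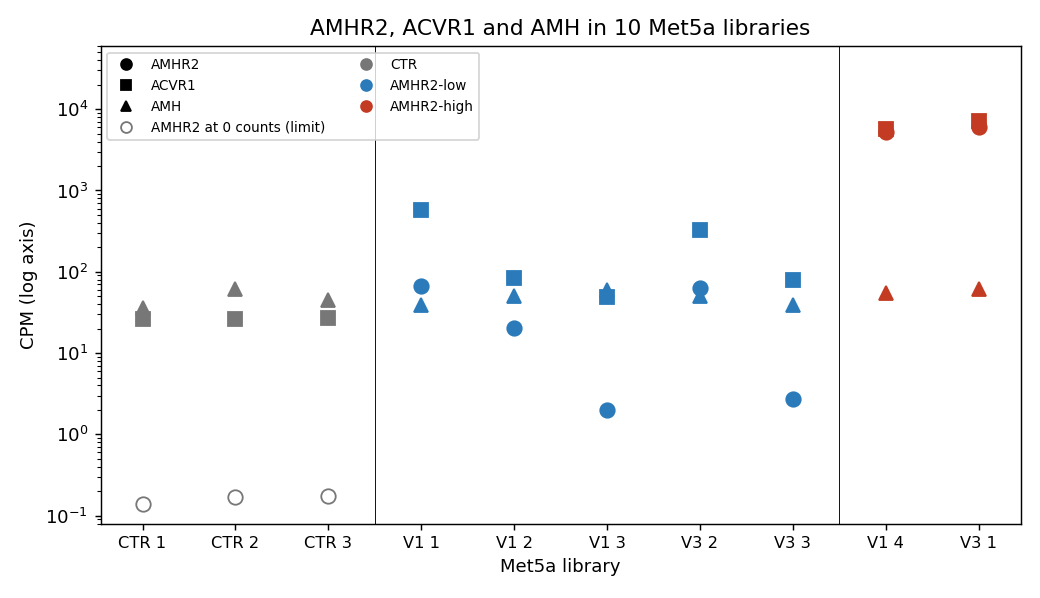
CPM of AMHR2 (circles), ACVR1 (squares) and AMH (triangles) on a log axis in each Met5a library, grouped as CTR (grey), AMHR2-low (blue) and AMHR2-high (red). Open circles mark the limit of a count of 0 for AMHR2; the high pair is at 5250 and 6090 CPM for AMHR2 and at 5670 and 7230 for ACVR1, while AMH stays between 36.1 and 61.8 CPM in all 10.

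The ligand overlapped between the classes. AMH (ENSG00000104899, chromosome 19, 2249309 to 2252073) was at 55.4 and 61.6 CPM in the high libraries, 38.6, 51, 59.4, 50.3 and 38.8 in the low ones and 36.1, 61.8 and 44.6 in CTR, with no separation (log2 fold change 0.31, SE 0.22, edgeR adjusted p = 0.692). Of the other type I and II receptors, BMPR2, the type II receptor of BMP ligands, was at 87.6 and 83.7 CPM against 62.4, 60.4, 50.3, 65.8 and 78.8. Both high libraries lay above all low ones but inside the CTR range of 82.7 to 107 CPM (log2 fold change 0.42, SE 0.19, edgeR adjusted p = 0.524). TGFBR1, the type I receptor of TGF-beta, was at 97.7 and 96.6 CPM, above 68.2 to 85.9 in the low libraries. BMPR1A, the other abundant type I receptor of AMH, overlapped at 73 and 70.3 against 55.6 to 71.3 CPM.

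Apart from AMHR2 and ACVR1, the 2 high libraries were the most alike of all pairs of Met5a libraries. Over 16509 other genes V1 4 and V3 1 differed by a root mean square of 0.206 in log2(CPM + 1), and 14 genes differed by more than 2-fold. The next closest pairs were V3 1 with CTR 2 at 0.266 (70 genes over 2-fold) and V1 4 with CTR 2 at 0.274 (74 genes). Every other pair was at 0.44 or more. Distances from high to low libraries ran from 0.486 to 0.692, among low libraries from 0.44 to 0.863, and among CTR libraries from 0.469 to 0.814. V1 4 was closer to V3 1 and to CTR 2 than to any other V1 library (0.625 to 0.692). The high pair still differed by more than sampling noise, with a chi-square per degree of freedom of 3.45 over 13694 genes, so they were kept as separate libraries. Both high libraries thus stood close to each other and to a control library without AMHR2, and how much of any high to low difference belongs to the receptor cannot be told apart.

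**Figure D2:**
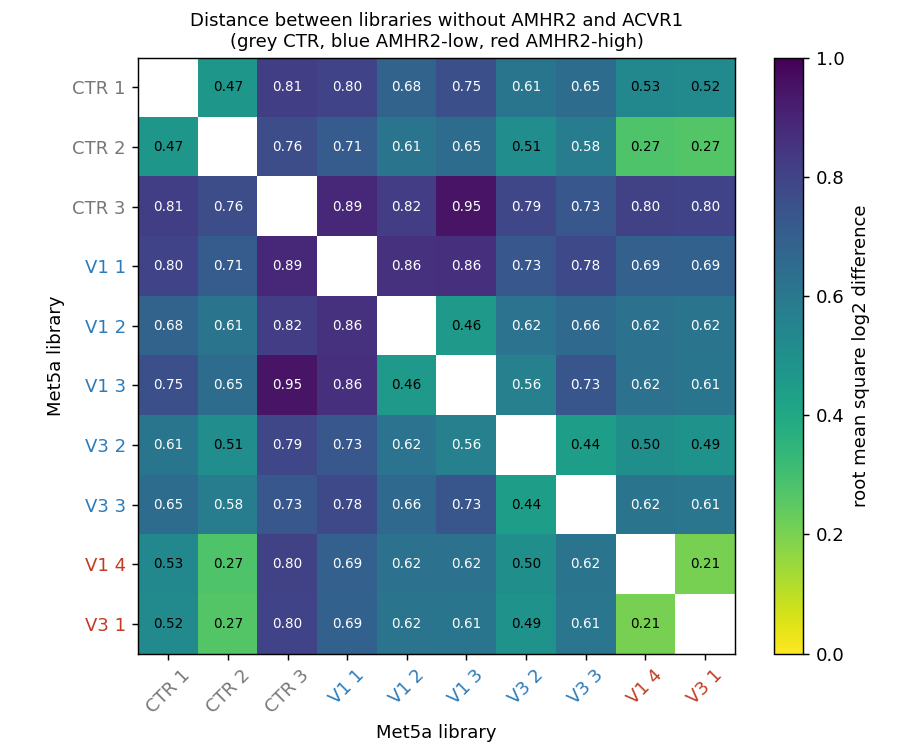
Root mean square difference in log2(CPM + 1) over 16509 genes, without AMHR2 and ACVR1, for each pair of Met5a libraries, with labels in grey (CTR), blue (AMHR2-low) and red (AMHR2-high). The smallest value is that of V1 4 with V3 1 (0.206), followed by either of them with CTR 2 (0.266 and 0.274).

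The fit of high against low, with receptor form as a covariate, asked which genes differ beyond the spread within the 2 classes. Of 17451 genes tested, edgeR called 0 at an adjusted p under 0.05 (0% called, smallest adjusted p 0.307), while 1691 (9.69%) had an unadjusted p under 0.05. DESeq2 called 210 genes (1.2%), 67 higher (0.384%) and 143 lower (0.819%), and limma on log2(FPKM + 1) called 0. Without V1 1, edgeR called 105 of 17022 genes, 36 higher (0.211%) and 69 lower (0.405%) in the high libraries (0.617% in all, smallest adjusted p 0.024), of which DESeq2 with all 7 libraries also called 60. Leaving out any other single library gave 0. Differences are therefore given below as levels in each library, and no gene is said to have changed between the classes unless a named fit called it.

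Counted by range, both high libraries lay above all 5 low libraries for 1813 genes (10.4%) and below all 5 for 1672 (9.58%). These counts depend on the scaling: with CPM of the plain library total they were 978 (5.6%) and 2600 (14.9%), so the share lying above went from 52% to 27.3% of the genes outside the range. That scale shifted the median gene by -0.102 in log2 relative to TMM. They also depend on the number of low libraries: over all genes, 16.9% lay above and 16.1% below the 4 that remain without V1 1, and 12.2 to 12.9% and 11.1 to 11.9% without any other low library. Of the 1813 genes lying above, the high mean was inside the CTR range for 793 (43.7%), above it for 946 and below it for 74. The low mean of these genes was inside it for 1054 (58.1%), below it for 738 and above it for 21. Of the 1672 lying below, the high mean was inside the CTR range for 788 (47.1%), below it for 808 and above it for 76. The low mean of these genes was inside it for 819 (49%), above it for 834 and below it for 19.

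Among protein-coding genes averaging 5 CPM or more with separate ranges, the smallest p-values were led, on the higher side, by DOCK5, SH3RF1, LRRFIP1, COL4A1, ACVR1 and COL1A1. DESeq2 with all 7 libraries called each of them. DOCK5 (chromosome 8, 25184723 to 25418082), an exchange factor for the GTPase Rac, was at 132 and 124 CPM in the high libraries against 51.2, 63.7, 53.7, 60 and 66.3 in the low ones. The classes did not overlap, and CTR lay between at 81.2, 116 and 101 (log2 fold change 1.11, SE 0.17, edgeR adjusted p = 0.307, and 0.0364 without V1 1). SH3RF1, a scaffold and ubiquitin ligase of the JNK pathway, was at 91.8 and 87.8 CPM against 28.6, 32, 41.4, 43.5 and 31.5, and CTR at 34.7, 67 and 25.3 did not reach the high pair (log2 fold change 1.34, SE 0.21, edgeR adjusted p = 0.307, and 0.037 without V1 1). LRRFIP1, a nucleic acid binding protein, was at 171 and 158 CPM against 77.9 to 97.3. CTR, at 122 to 152, stood nearer to the high pair.

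On the lower side stood RASSF2, TP53I3, ZNF219, PSG4, PGPEP1 and RRAGD. DESeq2 with all 7 libraries called each of these as well. RASSF2 (chromosome 20, 4780023 to 4823645), a Ras-binding tumour suppressor, was at 3.19 and 3.05 CPM in the high libraries against 9.56, 11, 11.8, 17.1 and 16.5 in the low ones. CTR, at 3.27, 2.13 and 3.7, was level with the high pair, and the low libraries were the ones apart (log2 fold change -2.07, SE 0.31, edgeR adjusted p = 0.307, and 0.0311 without V1 1). RRAGD, a Rag GTPase that signals amino acid supply to mTORC1, was at 11.7 and 13.1 CPM against 23.7 to 46.5, with CTR at 12.3, 12 and 26.6. PSG4, a pregnancy-specific glycoprotein, was at 13 and 14 against 32.7 to 57.3 CPM; its family is made of near-identical copies, so its counts are uncertain. ZNF219, a zinc finger transcription factor, was at 34.5 and 39.1 against 77.6 to 96.2 CPM, and PGPEP1, a peptidase that removes pyroglutamate, at 6.95 and 10.4 against 18.3 to 45.8. For ZNF219 and PGPEP1, CTR 1 and CTR 2 lay near the high pair (40.1 to 44 and 10.2 to 15.3 CPM) and CTR 3 far above it (139 and 122 CPM).

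Genes of the unfolded protein response, which the endoplasmic reticulum switches on when folding capacity falls short, were the list with the largest share above the low libraries among those with 5 or more tested members that are described here, on TMM-scaled CPM. Both high libraries lay above all 5 low ones for 10 of 16 tested members (62.5%, against 10.4% of all genes), for 5 of these also above all CTR libraries, and below for 0. The median log2 fold change was 0.40 against -0.03 over all genes. With CPM of the plain total the count was 5 of 16 (31.2%, against 5.6%), and the mesothelial markers then had the larger share, 4 of 12 (33.3%). edgeR called 0 members with all 7 libraries and 0 without V1 1. DESeq2 called 1 higher, HYOU1, against 0.384% of all genes.

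HSPA5, which encodes BiP, the main chaperone of the endoplasmic reticulum, was at 991 and 963 CPM in the high libraries. The low libraries stood at 436, 611, 641, 725 and 787 and CTR at 693, 690 and 379. Both high libraries therefore exceeded all 8 others (log2 fold change 0.60, SE 0.23, edgeR adjusted p = 0.483). HYOU1, a large chaperone of the same compartment, was at 323 and 327 against 163, 146, 147, 199 and 226 CPM, with CTR at 262, 275 and 213 (log2 fold change 0.87, SE 0.18, edgeR adjusted p = 0.373). PDIA4, a disulfide isomerase, was at 448 and 462 against 183 to 381 CPM and 139 to 418 in CTR. HSP90B1, the endoplasmic HSP90, was at 922 and 939 against 321 to 884 CPM and 327 to 826 in CTR.

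Other members overlapped. XBP1, a transcription factor of the response, was at 158 and 159 CPM against 91.4 to 159, and HERPUD1, which helps degrade misfolded proteins, at 100 and 103 against 60.3 to 108. MANF, a secreted factor of the response, was at 70.2 and 71.8 against 65.3 to 80 CPM and was the 1 member with a negative fold change.

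The endoplasmic reticulum stress element is the promoter motif CCAAT followed by 9 bases of any kind and CCACG, searched here on both strands. It was found in the RefSeq promoter window (250 bases before to 50 after the start) of 5 of the 16 members (31.2%), against 22 of 27305 genes (0.0806%). Of these, HSPA5, HSP90B1 and CALR had both high libraries above all low ones, and XBP1 and CRELD2 did not. The 250 bases before the start of those that separated are given 5′ to 3′ in the direction of the gene, with the motif in capitals, to show where it stands in the 3 of the 10 separated members that hold it. The windows are from RefSeq on GRCh38.p14, HSPA5 at chr9:125241344-125241593 on the minus strand, HSP90B1 at chr12:103930160-103930409 and CALR at chr19:12938359-12938608 on the plus strand; HSP90B1 holds the motif at 2 places.
HSPA5: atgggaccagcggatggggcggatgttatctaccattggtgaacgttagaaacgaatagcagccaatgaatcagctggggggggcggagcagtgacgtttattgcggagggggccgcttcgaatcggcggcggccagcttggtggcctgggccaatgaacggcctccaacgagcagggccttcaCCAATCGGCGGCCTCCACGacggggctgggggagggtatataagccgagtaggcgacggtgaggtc
HSP90B1: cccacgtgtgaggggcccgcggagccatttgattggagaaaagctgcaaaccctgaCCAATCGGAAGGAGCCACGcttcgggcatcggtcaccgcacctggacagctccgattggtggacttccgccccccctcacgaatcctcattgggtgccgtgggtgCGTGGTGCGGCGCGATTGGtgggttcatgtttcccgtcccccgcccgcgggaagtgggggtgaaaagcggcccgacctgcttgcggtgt
CALR: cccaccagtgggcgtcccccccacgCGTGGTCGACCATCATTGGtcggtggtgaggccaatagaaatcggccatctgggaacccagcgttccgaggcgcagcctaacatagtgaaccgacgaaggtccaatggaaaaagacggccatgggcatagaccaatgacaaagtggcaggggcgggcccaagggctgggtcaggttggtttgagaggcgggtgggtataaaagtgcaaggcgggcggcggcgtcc
A match is a description of the letters, not a measured binding site. CALR, the lectin chaperone calreticulin, was at 582 and 617 CPM against 349, 446, 547, 565 and 576 in the low libraries, a narrow gap, and inside the CTR range of 329 to 647.

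Heat shock genes are the chaperones and co-chaperones of the cytosol and the mitochondrion. Both high libraries lay above all low ones for 3 of 12 tested members (25%, against 10.4% of all genes) and below for 0. The median log2 fold change was 0.32. Without V1 3 the count above was 5 (41.7%, against 12.9% of all genes). BAG3, a co-chaperone of HSP70, was at 164 and 168 CPM against 116, 93.8, 106, 134 and 103, and 95.4, 119 and 90.3 in CTR (log2 fold change 0.58, SE 0.18, edgeR adjusted p = 0.434). HSPA6, a strictly inducible HSP70, was at 13.7 and 11.6 CPM against 15.2, 1.38, 1.62, 3.2 and 1.04, and at 0.393 to 0.752 in CTR. V1 1 was thus as high as the high pair, and the edgeR log2 fold change went from 1.82 (adjusted p = 0.563) to 2.82 (adjusted p = 0.0375) without it.

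**Figure D3:**
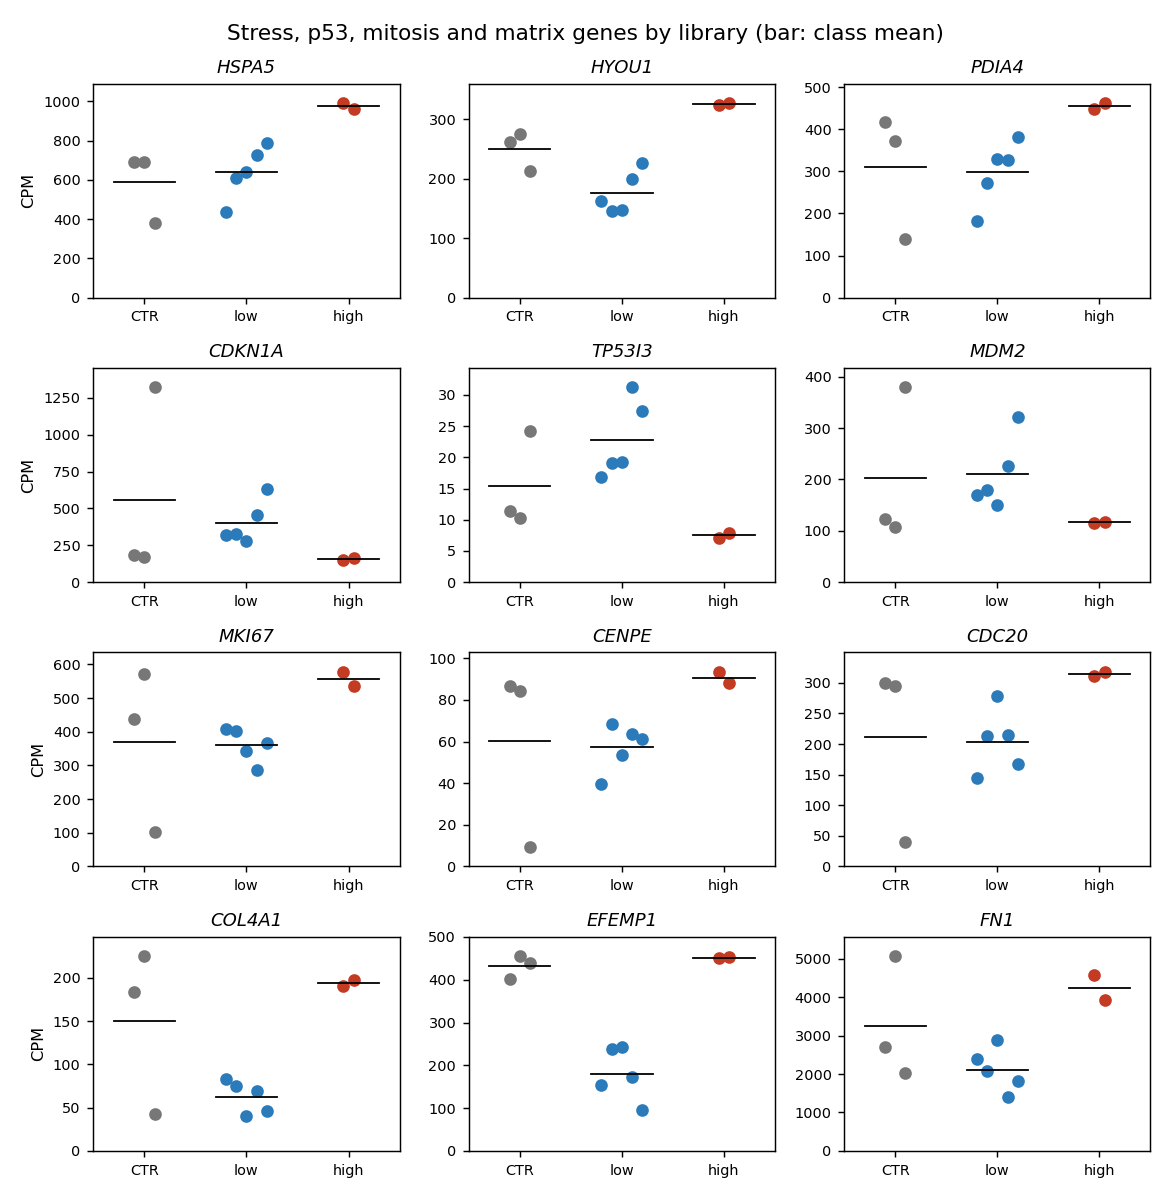
CPM of 12 genes in each Met5a library, in classes CTR (grey, n = 3), AMHR2-low (blue, n = 5) and AMHR2-high (red, n = 2), with bars at the class means and axes from 0. HSPA5, HYOU1 and PDIA4 are highest in the high pair, while for CDKN1A, MDM2, MKI67, COL4A1 and EFEMP1 the high pair lies within the CTR range, apart from CDKN1A, just under it, and V1 4 for MKI67, just above it.

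Target genes of p53, the transcription factor that arrests damaged cells, were the opposite case. Both high libraries lay below all low ones for 9 of 20 tested members (45%, against 9.58% of all genes) and above for 0, and 18 of 20 had a negative fold change (median -0.69). CDKN1A, which encodes the cell cycle inhibitor p21, was at 153 and 164 CPM in the high libraries against 319, 325, 278, 456 and 629 in the low ones. CTR 1 and CTR 2, at 182 and 173, stood beside the high pair, and CTR 3 stood far above all at 1320 (log2 fold change -1.33, SE 0.25, edgeR adjusted p = 0.307, and 0.0574 without V1 1).

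TP53I3, a p53-induced oxidoreductase, was at 7.06 and 7.95 CPM against 16.9, 19.1, 19.3, 31.2 and 27.5, below every CTR library as well (11.4, 10.3 and 24.3). Its log2 fold change was -1.61 (SE 0.24, edgeR adjusted p = 0.307). It was the 1 member that edgeR called without V1 1 (adjusted p = 0.0311), where 0.405% of all genes were called lower. DESeq2 with all 7 libraries called 2 members lower, against 0.819% of all genes: TP53I3 (adjusted p = 5.69e-06) and CDKN1A (0.000307). MDM2, the ubiquitin ligase that degrades p53 and is itself a target, was at 116 and 118 CPM against 169, 180, 151, 226 and 322, with CTR at 122, 108 and 379. GDF15 is a stress cytokine that p53 also induces and that belongs to the TGF-beta family. It was at 5.04 and 6.15 CPM against 28.7, 46.2, 20.3, 23.3 and 16.4, and 12.6, 6.01 and 37 in CTR. The log2 fold change was -2.17 (SE 0.42, edgeR adjusted p = 0.327, DESeq2 adjusted p = 6.81e-05). For CDKN1A and MDM2 the low libraries, not the high pair, were the ones away from CTR 1 and CTR 2. As a mean over the list, the high pair scored -0.428 and -0.389, CTR 1 to 3 -0.451, -0.459 and 0.952, and the low libraries -0.15 to 0.634, in log2 units around the mean of the 10 libraries.

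Genes of G2 and mitosis leaned the other way to p53 targets. Both high libraries lay above all low ones for 9 of 28 (32.1%, against 10.4% of all genes) and below for 0. The median log2 fold change was 0.24. When V1 3 was left out the count above was 16 (57.1%, against 12.9% of all genes). MKI67, the proliferation antigen Ki-67, was at 578 and 537 CPM against 407, 401, 344, 288 and 366 (log2 fold change 0.65, SE 0.19, edgeR adjusted p = 0.434). CTR 2 was at 573 CPM and CTR 3 at 102, with CTR 1 between them. CENPE, a kinetochore motor, was at 93.5 and 88 against 39.5, 68.5, 53.6, 63.6 and 61.3, with CTR at 86.5, 84.3 and 9.48 (log2 fold change 0.66, SE 0.22, edgeR adjusted p = 0.462). CDC20, the activator of the anaphase-promoting complex, was at 312 and 318 CPM against 144 to 278. Cyclin and mitotic kinase genes were on both sides. CCNA2, cyclin A2, was at 159 and 153 against 48.9 to 133 CPM and PLK1, polo-like kinase 1, at 299 and 306 against 133 to 265, without overlap. CCNB1, cyclin B1, was at 185 and 187 against 94.1 to 190 CPM and CDK1, its kinase partner, at 193 and 187 against 169 to 243, both overlapping. The promoter motif TTTGAA, the core of the cell cycle homology region, was in 14 of the 22 members with a RefSeq window (63.6%), against 15.4% of all 27305 genes, either strand.

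The 31 DNA replication genes tested had a median log2 fold change of -0.01. Of these, 1 lay above (TYMS) and 4 below all low libraries (3.23% and 12.9%, against 10.4% and 9.58% of all genes). These counts rest on V1 1 and on the scaling. Without that library 9 lay above (29%, against 16.9% of all genes) and 4 below (12.9%, against 16.1%). With CPM of the plain total 0 lay above (against 5.6%) and 7 below (22.6%, against 14.9%). The difference from the mitotic genes was not tested. PCNA, the polymerase clamp, was at 565 and 565 CPM against 852, 598, 788, 648 and 567, and PRIM2, a primase subunit, at 29.3 and 23.1 against 53.3, 37.8, 41.6, 32 and 30.5 (log2 fold change -0.52, SE 0.21, edgeR adjusted p = 0.505).

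By number of genes, the matrix was the largest of the described groups standing higher, and it was also the longest list. Of 41 tested collagen and matrix genes, both high libraries lay above all low ones for 12 (29.3%, against 10.4% of all genes). They lay below for 0, against 9.58% of all genes. The median log2 fold change was 0.50, and for 1 of the 12 the high pair also lay above all CTR libraries. DCN, among the 12, passed the minimum count through the high pair alone. edgeR called 0 members with all 7 libraries and 2 higher without V1 1 (COL4A1 and COL4A2), against 0.211% of all genes. DESeq2 called 5 higher, against 0.384% of all genes: COL4A1 (adjusted p = 0.000494), COL1A1 (0.00233), FN1 (0.00342), EFEMP1 (0.00376) and COL4A2 (0.0143). COL4A1, a basement membrane collagen, was at 191 and 197 CPM against 83.4, 75.5, 39.8, 68.7 and 45.8, with CTR at 184, 225 and 42.5. The classes did not overlap, and CTR 1 and CTR 2 again stood with the high pair (log2 fold change 1.65, SE 0.29, edgeR adjusted p = 0.307, and 0.0376 without V1 1). COL4A2, its partner chain on a shared promoter, was at 397 and 402 against 109 to 213 CPM (edgeR adjusted p = 0.0476 without V1 1).

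COL1A1, the main fibrillar collagen chain, was at 60.4 and 61.1 CPM against 17.3, 24.1, 14.1, 21.1 and 32.8, while CTR at 212, 110 and 34.2 stood on both sides (log2 fold change 1.47, SE 0.27, edgeR adjusted p = 0.307). EFEMP1, a fibulin of elastic fibres, was at 450 and 453 against 155, 237, 242, 173 and 95 CPM, with CTR at 402, 455 and 439 (log2 fold change 1.42, SE 0.29, edgeR adjusted p = 0.373). FN1, fibronectin, was at 4580 and 3920 CPM against 1390 to 2890, and 2700, 5070 and 2020 in CTR. For EFEMP1, then, all 5 low libraries lay below all CTR libraries and the high pair at their level.

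Of 20 targets of TGF-beta and activin, some of them the same matrix genes, 5 stood above all low libraries (25%, against 10.4% of all genes). NEDD9 alone lay below (5%, against 9.58%). DESeq2 called 4 members higher, against 0.384% of all genes: FN1, COL1A1, TGFBI and TAGLN. TGFBI, a matrix protein named for its induction by TGF-beta, was at 412 and 436 CPM against 235, 205, 201, 202 and 283, and 643, 682 and 179 in CTR (log2 fold change 0.90, SE 0.20, edgeR adjusted p = 0.373). TAGLN, a smooth muscle actin-binding protein, was at 386 and 429 against 155, 86.3, 191, 107 and 16.5 CPM.

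Targets of YAP and TEAD, the effectors of the Hippo pathway, had a median log2 fold change of 0.30. Both high libraries lay above all low ones for 7 of 25 (28%, against 10.4% of all genes) and below for 0. For 5 of the 7 they lay above all CTR libraries too. With CPM of the plain total the count was 3 (12%, against 5.6% of all genes), and it was 11 without V1 3 (44%, against 12.9%). Beside DOCK5, WWC1, a scaffold of the same pathway, was at 96.1 and 105 CPM against 51, 66.5, 74.9, 43.2 and 46.8, with 68.2, 89.3 and 70.8 in CTR (log2 fold change 0.90, SE 0.22, edgeR adjusted p = 0.396). The classical targets CTGF (422 and 403 against 166 to 821 CPM) and CYR61 (1470 and 1460 against 753 to 1790 CPM) overlapped, V1 3 being the highest library for both.

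Mesothelial markers stood above all low libraries for 4 of 12 tested (33.3%, against 10.4% of all genes). UPK3B alone lay below (8.33%, against 9.58%). DESeq2 called 1 member higher, BNC1, against 0.384% of all genes. KRT8, a simple epithelial keratin, was at 2610 and 2750 CPM against 738 to 2330, and BNC1, a zinc finger factor of mesothelium, at 78.4 and 81.2 against 31.9, 37.9, 52, 42.8 and 28.9 (log2 fold change 1.06, SE 0.24, edgeR adjusted p = 0.377). CALB2, the mesothelial marker calretinin, was at 6.37 and 6.65 against 0.445 to 3.94 CPM, yet lay under all CTR libraries (15.3 to 56.4 CPM). MSLN, which encodes mesothelin, a defining surface protein of mesothelium, had a negative fold change: it was at 15.5 and 14.8 CPM against 11.7, 70.1, 64.8, 30.3 and 29.3, overlapping through V1 1 (log2 fold change -1.34, SE 0.62, edgeR adjusted p = 0.531). KRT19 was under 1 CPM in all libraries.

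**Figure D4:**
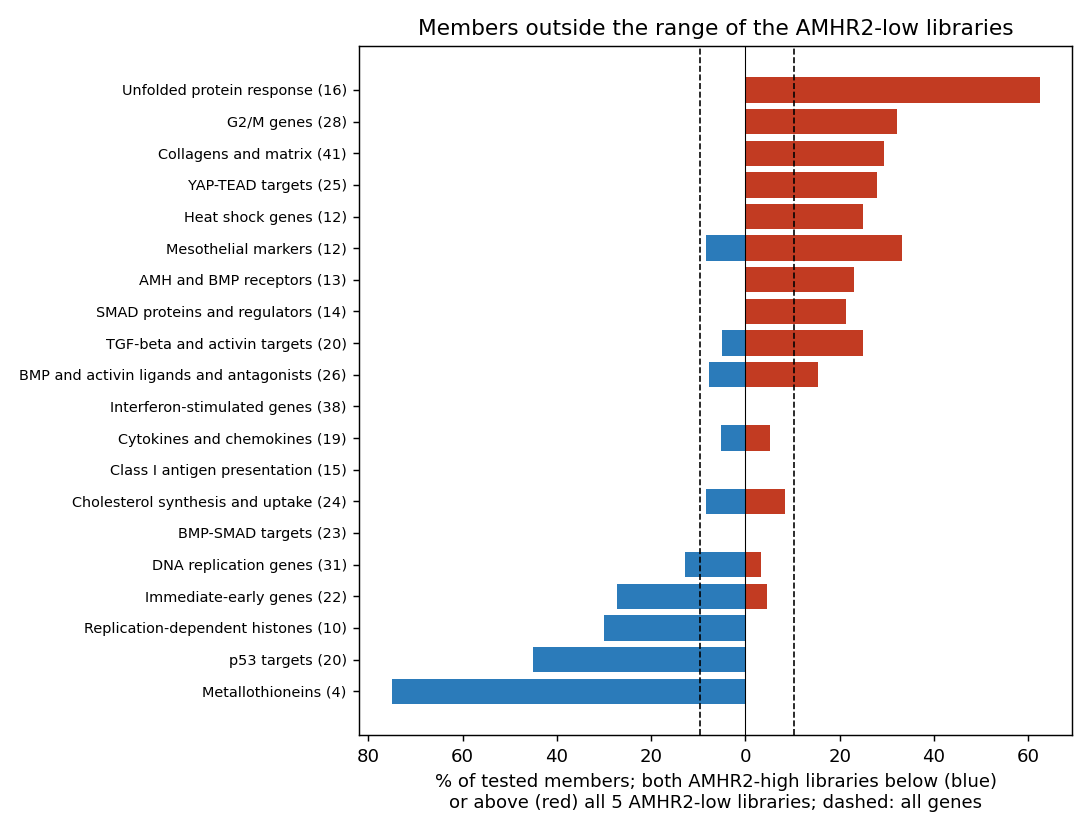
Share of tested members of each list for which both AMHR2-high libraries lie above (red, right) or below (blue, left) all 5 AMHR2-low libraries, with the number tested in brackets and dashed lines at the shares over all genes (10.4% and 9.58%). Unfolded protein response genes reach 62.5% above and p53 targets 45% below, while BMP-SMAD targets, interferon-stimulated genes and class I genes have 0 on either side.

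BMP-SMAD targets, the readout nearest to the receptor, did not separate. Of 23 tested BMP-SMAD target genes, 0 lay above and 0 below all low libraries, against 10.4% and 9.58% of all genes. Of the 23, 12 had a positive and 11 a negative fold change, and the median log2 fold change was 0.000744. ID1, an inhibitor of basic helix-loop-helix factors and the best known BMP target, was at 273 and 253 CPM in the high libraries against 271, 109, 233, 411 and 606, and 404, 444 and 43.6 in CTR (log2 fold change -0.18, SE 0.43, edgeR adjusted p = 0.915). The high pair lay in the middle of both ranges. ID3 was at 139 and 148 CPM against 71.3 to 165, and ID2 at 6.89 and 3.9 against 3.85 to 25.8.

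SMAD6 and SMAD7, the inhibitory SMADs induced as feedback, were at 42.2 and 39.3 against 23.6 to 55.6 CPM and at 27.8 and 30.8 against 14.4 to 48.2. SMURF1, a ubiquitin ligase of the SMADs, had the smallest p of the list, at 98 and 104 against 98.6, 79.6, 74.4, 68.4 and 58.8 CPM (log2 fold change 0.46, SE 0.20, edgeR adjusted p = 0.523). GATA3 followed at 14.9 and 13.8 against 27.3, 23.7, 22.5, 15.5 and 12 CPM (log2 fold change -0.36, edgeR adjusted p = 0.683). V1 1 was the highest low library for SMAD7, ID2, ID4, DLX2, ATOH8 and several others. Without it 5 of 23 (21.7%, against 16.9% of all genes) lay above the remaining 4 low libraries and 1 below (4.35%, against 16.1%). Among these ID4, another of the ID genes, was at 2.43 and 2.25 CPM against at most 0.114 in those 4 and 15.7 in V1 1. edgeR called ID4 in that fit, but without V1 1 the gene passed the minimum count through the high pair alone, so the call is not read.

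SMAD proteins and their regulators stood above all low libraries for 3 of 14 (21.4%, against 10.4% of all genes) and below for 0. With CPM of the plain total the count above was 1 (7.14%, against 5.6% of all genes). The 3 on TMM-scaled CPM were SKI, SMAD5 and SMURF2, while SMAD1, SMAD2, SMAD3 and SMAD4 overlapped. SMAD5, a receptor SMAD of the BMP branch, was at 119 and 114 CPM against 94.4, 107, 83.2, 87 and 103, and the co-repressor SKI at 151 and 152 against 123, 107, 111, 107 and 140 (log2 fold change 0.36, SE 0.18, edgeR adjusted p = 0.561). Of 26 ligands and antagonists, 4 lay above and 2 below all low libraries (15.4% and 7.69%), and 2 and 2 with CPM of the plain total. Those below were GDF15, described with the p53 targets, and INHA, the inhibin alpha subunit, at 3.76 and 4 CPM against 6.3, 6.97, 7.29, 5.94 and 5.96 (log2 fold change -0.72, SE 0.30, edgeR adjusted p = 0.507). Among those above, FSTL1, a secreted follistatin-like BMP binder, was at 477 and 474 against 88 to 424 CPM.

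**Figure D5:**
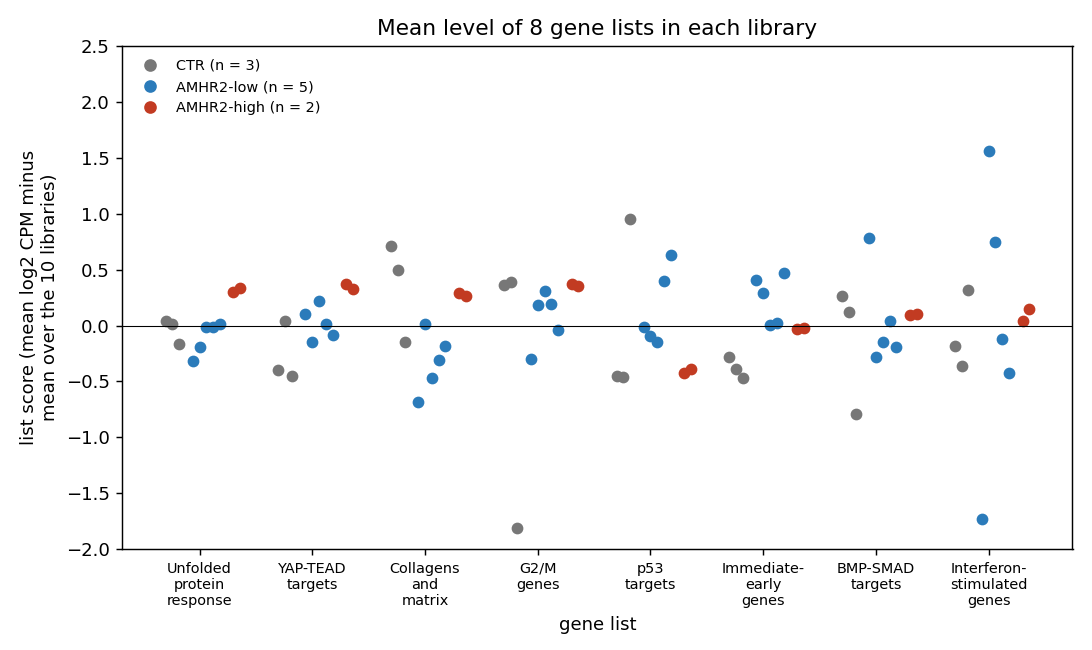
Mean level of 8 gene lists in each Met5a library, as log2 CPM relative to its 10-library mean, averaged over the members, for CTR (grey), AMHR2-low (blue) and AMHR2-high (red). The high pair is at 0.302 and 0.332 for the unfolded protein response, above the other 8 libraries, and at -0.428 and -0.389 for p53 targets, beside CTR 1 and CTR 2 (-0.451 and -0.459).

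Immediate-early genes answer growth factors and stress within minutes. They lay below all low libraries for 6 of 22 (27.3%, against 9.58% of all genes). FOSL1 alone lay above (4.55%, against 10.4%). DESeq2 called 2 members lower, against 0.819% of all genes: EGR1 (adjusted p = 0.0332) and JUND (0.0477). EGR1 was at 42.6 and 43.3 CPM against 87.8, 139, 58, 134 and 460, and 56.3, 29 and 18.9 in CTR (log2 fold change -1.83, SE 0.61, edgeR adjusted p = 0.443). JUND was at 107 and 116 against 304, 183, 184, 192 and 240 CPM (log2 fold change -0.98, SE 0.27, edgeR adjusted p = 0.424). FOSL1, a Fos family member, was at 201 and 194 against 84.6 to 192 CPM, above all CTR libraries as well. CITED2, a transcriptional coregulator outside the list and singled out after its values were seen, was at 134 and 132 CPM against 306, 235, 333, 207 and 247, with CTR at 111, 107 and 122 (log2 fold change -0.96, SE 0.22, edgeR adjusted p = 0.386).

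In metallothioneins and replication-dependent histones V1 1 was the highest low library by list mean. Of 4 metallothioneins tested, 3 lay below all low libraries (75%, against 9.58% of all genes). MT2A was at 254 and 302 CPM against 1480, 358, 428, 735 and 606, with CTR at 168, 247 and 174. Its log2 fold change was -1.37 (SE 0.56, edgeR adjusted p = 0.507), and -0.89 without V1 1. Of 10 histone genes, 3 lay below (30%, against 9.58% of all genes) and the rest overlapped. Without V1 3, 5 lay below (50%, against 11.9% of all genes). By list mean the high pair, at -0.385 and -0.374 log2 units, lay inside the low range of -0.554 to 1.42. HIST1H3B was at 0.405 and 0.75 CPM against 7.79, 1.73, 1.48, 1.03 and 1.74.

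The innate immune lists separated nowhere. Of 38 interferon-stimulated genes and 15 class I antigen presentation genes, 0 lay outside the range of the low libraries in either direction. Over all genes 10.4% lay above and 9.58% below. The median log2 fold changes of the 2 lists were -0.15 and -0.30. Low libraries differed widely here: HLA-B was at 30.1 and 39.2 CPM in the high pair and at 21, 163, 232, 80.1 and 83.8 in the low libraries. IRF9, a subunit of the interferon-activated factor, was at 10.9 and 11.1 CPM against 1.89, 11.4, 6.15, 2.97 and 4.34. Without V1 1, 8 of the 38 (21.1%) and 6 of the 15 (40%) lay below the other 4 low libraries, against 16.1% of all genes. Among 19 cytokines and chemokines, 1 lay above and 1 below (5.26% each, against 10.4% and 9.58% of all genes), and 3 below without V1 1 (15.8%, against 16.1%). The one above was IL11, at 412 and 416 CPM against 273, 325, 345, 349 and 404. The one below was IL6, at 1.56 and 1.3 CPM against 7.5, 17.1, 46.2, 12.1 and 2.6 (log2 fold change -3.20, SE 0.95, edgeR adjusted p = 0.434, DESeq2 adjusted p = 0.00185). Of 24 cholesterol genes, 2 lay above and 2 below (8.33% each, against 10.4% and 9.58% of all genes). Without V1 1 it was 8 above (33.3%, against 16.9% of all genes) and 2 below (8.33%, against 16.1%). With CPM of the plain total it was 0 above (against 5.6%) and 2 below (8.33%, against 14.9%). The lowest p of these was that of TM7SF2, a sterol reductase, at 7.93 and 10.9 CPM against 28.7, 15, 26.4, 40.7 and 57.9 (edgeR adjusted p = 0.307).

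Within each receptor form the contrast rests on 1 high library. V1 4 was over 2-fold above V1 1 to V1 3 for 122 genes and over 2-fold below for 155 (0.699% and 0.888%), after adding 0.5 CPM to every value. V3 1 was over 2-fold above V3 2 and V3 3 for 197 and below for 549 (1.13% and 3.15%). The forms shared 21 genes above, 17.2% of the V1 genes and 10.7% of the V3 genes, and 49 below, 31.6% and 8.93%. A further 6 genes lay above in V1 and below in V3, and 0 the other way round.

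The test of whether the high to low difference itself differed between the forms called 0 of 17451 genes in edgeR (0% called, 166 genes or 0.951% at an unadjusted p under 0.05). DESeq2 called 8, and edgeR without V1 1 called 6, of which BICC1, PDPN and KRT5 were in both. PDPN, the mesothelial and lymphatic glycoprotein podoplanin, was at 14.8 CPM in V1 4 against 0.344, 0.148 and 0.0477 in V1 1 to V1 3, and at 15.6 in V3 1 against 17.6 and 18.1 in V3 2 and V3 3. CTR was at 5.99, 12 and 12.7, so the V1 low libraries alone lacked it (log2 difference V1 minus V3 6.55, SE 1.04, edgeR adjusted p = 1, DESeq2 adjusted p = 1.15e-08). BICC1, an RNA-binding protein, was at 23.7 CPM in V1 4 against 2.06, 1.19 and 0.81, and at 21.1 in V3 1 against 55.9 and 47, with CTR at 20.4, 20.4 and 24.5 (log2 difference 5.43, SE 0.76, edgeR adjusted p = 1, DESeq2 adjusted p = 1.15e-08). For both genes V1 4 stood with V3 1 and CTR, not with the other V1 libraries.

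Each class was also set against the 3 CTR libraries, with 2 high and 5 low libraries, so their counts of genes are not comparable. High against CTR, edgeR called 0 of 18080 genes (0% called, 596 or 3.3% at an unadjusted p under 0.05, smallest adjusted p 0.149), and DESeq2 called 6. The unadjusted count ran from 240 without V3 1 to 1233 without CTR 2, with 345 without V1 4 and 314 without CTR 3. Both high libraries were over 2-fold above every CTR library for 11 genes (0.0608%) and over 2-fold below for 12 (0.0664%). The 11 were ACVR1, F3, TNFAIP3, IFI27, CD274, FGF5, ADAMTS6, ANKRD30B, HSPA6, SERPINB2 and USP18. For each of them at least 1 low library was also over 2-fold above every CTR library. ACVR1 stood 7.92 log2 units above CTR (SE 1.08, edgeR adjusted p = 0.149, and 0.00876 without V1 1). TNFAIP3, a deubiquitinase that restrains NF-kB, was at 207 and 199 CPM against 79.8, 80.5 and 58.8 in CTR, but the low libraries stood high as well at 172, 182, 184, 164 and 135 (log2 fold change 1.48, SE 0.21, edgeR adjusted p = 0.149).

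Low against CTR, edgeR called 1 gene of 18080 (0.00553%, with 1697 or 9.39% at an unadjusted p under 0.05) and DESeq2 called 253. The unadjusted count ran from 1064 without V3 2 to 2553 without V1 1. The gene was MAGED4 (chromosome X, 52184823 to 52192268), a melanoma antigen family member, at 0.745, 1.28, 2.1, 0.914 and 1.33 CPM in the low libraries against 17.8, 14 and 14.9 in CTR (log2 fold change -3.60, SE 0.37, edgeR adjusted p = 0.0265). It was as low in the high pair, at 0.637 and 1 CPM (log2 fold change against CTR -4.23, SE 0.55, edgeR adjusted p = 0.149), so it was low in all 7 libraries with a construct. The call was lost without CTR 1 (edgeR adjusted p = 0.201), CTR 2 (0.121), V1 4 (0.0693), V3 1 (0.0702), V3 2 (0.118) or V3 3 (0.337). MAGED4 has a near-identical copy, MAGED4B, between which reads could be split. High and low share the CTR libraries, so these comparisons with CTR are not independent of each other.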

How the data were processed

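The values tested are whole-number counts per gene in the 10 Met5a libraries, as deposited by the authors. FPKM values deposited by the authors (counts per gene length and library depth) served 1 alternative and the comparison of receptor levels. The aligner, counter, strandedness and build are not stated in the labels or file headers; the positions of all 58735 genes match release 29 of GENCODE (GRCh38). The 16 columns of mouse tumour values were not used, and entries without a gene identifier held 0 counts. Groups and replicate numbers follow the titles.

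Genes were kept with filterByExpr (minimum count 10) of edgeR 4.0.16 in R 4.3.3, and high was compared with low by its quasi-likelihood test over the 7 libraries, with receptor form as covariate, two-sided, Benjamini-Hochberg adjusted over all genes (threshold 0.05). AMHR2 entered the totals but no test. Each SE given with an edgeR value is approximate: the absolute log2 value divided by the square root of that test's F statistic. The interaction with form used the same libraries, and comparisons with CTR used 10. Ranges compare the 2 high with the 5 low libraries on TMM-scaled CPM, and list shares are read beside those of all genes. The scripts were tested on simulated data.

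The classes and gene lists were chosen with earlier results of these data known. By rule, the text names protein-coding genes whose classes do not overlap, averaging 5 CPM or more, by smallest p and up to 6 per direction, and those with the smallest p in the other fits and in each list. Other genes named with values were chosen after these were seen. The fits were repeated with median-ratio (RLE) factors, without a filter, with DESeq2 1.42.0, limma 3.58.1 on log2(FPKM + 1) at a mean FPKM of at least 1, no form covariate, a replicate block, all 10 libraries, AMHR2 as a continuous term, AMHR2 and ACVR1 removed, and each library left out. The mean of the within-form effects and range counts under other scalings or without a library were chosen after seeing the data.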

Additional observations from a re-analysis of the deposited data

Results flagged for a closer look

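In 7 of 105 checks, 1 library lay far from the others of its set of 4 or 5, where chance gives about 1 in 20. V1 1 stood apart among the low libraries for MT1E, a metallothionein, at 864 CPM against 78.7 to 135 in the others. The same library held 4.30 CPM of the linker histone gene HIST1H1E, against 0.694 to 1.20, and 7.79 CPM of HIST1H3B, against 1.03 to 1.74. Its mean over the metallothionein list was 2.87 log2 units above the 10-library mean, against -0.171 to 0.442 in the other low libraries, and it stood apart in the same way among the 4 V1 libraries, where the others ran from -0.466 to -0.035. For replication-dependent histones its mean was 1.42, against -0.554 to -0.122. V1 3 stood apart among the V1 libraries for cytokines and chemokines, at -0.371 against -0.177 to -0.159, a narrow range.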

How the results depend on the processing

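Between high and low the adjusted count was 0 under RLE factors, limma, no form covariate, all 10 libraries, removal of AMHR2 and ACVR1, and the mean of the within-form effects (added after seeing the data). It was 210 with DESeq2, 260 with no filter (which also admits near-empty genes) and 3 with continuous AMHR2, which were ACVR1, COL4A1 and NRG3, the last admitted by the count filter through the high pair alone. Leaving out 1 library gave 0 to 105, the latter without V1 1; without V1 4 or V3 1 the lone high library is taken to vary like the low ones. For the difference between forms the counts were 9 with no filter and 8 with DESeq2, and 0 to 6 with a library left out; fits without V1 4 or V3 1 could not be made, since a class of that form is then empty. For high against CTR they were 396 with no filter and 6 with DESeq2, and 0 to 1 with a library left out. For low against CTR they were 956 with no filter and 253 with DESeq2, and 0 to 37 with a library left out. The cause of these differences was not tested.

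Whether replicate numbers pair the libraries is not known. Deviations from the group means correlated at -0.23 to 0.33 between same-numbered libraries, and differently numbered libraries were not set beside them. A replicate block with form gave 770 calls; 12 of the 105 found without V1 1 were among them, 7 in the same direction. The block turned the log2 fold change of HLA-B to 2.13, HLA-C to 1.60, PDPN to -1.97 and HSPA6 to -0.74. With a library left out GATA3 ran from -0.71 to 0.01 and PDPN from -0.19 to 6.37. Of 986 alternative values of named genes, 6 reversed, and of 320 list medians, 20 moved by more than the spread among the low libraries. The high class of 2 libraries limits the precision throughout.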

Other observations

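Some genes outside the lists followed the classes closely, and those given here were picked with their values in view. NRG3, a neuregulin ligand of the receptor ERBB4, was at 2.95 and 4.9 CPM in the high libraries and at 0.0573, 0, 0, 0.114 and 0 in the low ones. CTR was at 2.81, 2.86 and 0.983, so the low libraries were the ones without it. Among these 7 libraries NRG3 passed the minimum count through the high pair alone, so its p is not given.

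DCN, the matrix proteoglycan decorin and a member of the matrix list, was lower in the low libraries than in the high pair, and lower in both than in CTR. It was at 1.56 and 1.55 CPM in the high pair, at 0.344, 0.445, 0, 0.286 and 0.694 in the low libraries and at 6.41, 3.2 and 4.05 in CTR. The high pair lay between, below every CTR library. DCN would not have passed the minimum count without the high pair, so its p is not given.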
